A study of Ovis aries with 6 samples.

Results

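ENSOARG00000002022 and ENSOARG00000000662 are annotated sheep genes whose transcripts were nearly absent from the testes of rams on a maintenance energy diet and were read in testes from the 55% energy level. The second was scarcely read in 1 of those testes, D11, with 4 reads. These genes are 2 of the 29307 genes of the deposited count table, of which 20921 carry Ensembl identifiers (prefix ENSOARG) and 8386 carry identifiers of the kind of Novel03527, called unannotated in this text. Both were picked by identifier, because earlier work on these same libraries had shown them to differ between the diets. Their difference between diets and their spread among restricted testes are therefore given as a description, with no test between diets. The intervals beside them cover the counting of reads alone and do not speak to diet or to other animals.

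Messenger RNA was sequenced from 6 testes of Hu sheep, a breed kept in China. The libraries A13, A15 and A16 came from the maintenance energy level (n = 3), and D9, D10 and D11 came from the 55% energy level (n = 3), called restricted here. The labels give no age, time of sampling or other treatment for either diet, and do not state that each library came from its own animal. The series title also speaks of a compensation phase, and the labels do not tell at which phase the restricted sheep were sampled.

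The testis makes sperm in its seminiferous tubules, where germ cells pass through mitosis, meiosis and spermatid maturation in the care of Sertoli cells, while Leydig cells between the tubules make testosterone. It transcribes more genes than most organs, many of them at a low level and in germ cells of one stage only. Energy restriction of growing males is known to slow testis growth and the onset of sperm production. The files pair no identifier with a gene name, and 0 of the 29307 identifiers occurred in the supplied RefSeq table of the sheep assembly ARS-UI_Ramb_v3.0. What either gene encodes, where it lies in the genome and whether a near-identical copy shares its reads were thus not analysed here, and the labelled tissue could not be checked against marker genes. In whole-testis RNA, fewer cells of a type and less RNA per cell cannot be told apart.

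Library depth ran from 13876765 counted reads in D11 to 20050430 in A15, and every maintenance library was deeper than every restricted one. Levels are given in CPM, which are reads of a gene per 1000000 counted reads of its library. Of the variance of log2(CPM + 0.5) over the 22323 genes kept by a filter on low counts, 62.0% fell on the leading principal component, which crossed the diets. A13 (-78.8), D10 (-50.2) and D11 (-44.1) lay on one side of it, and A15 (93.8), A16 (34.9) and D9 (44.4) on the other.

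ENSOARG00000002022 was read at an even level in all restricted testes and close to nothing in maintenance testes. It had 74 reads in D9, 63 in D10 and 67 in D11. It had 0 reads in A13, 5 in A15 and 0 in A16. Every restricted library thus stood far above every maintenance library, and all maintenance reads lay in 1 library, A15, the deepest of the study. After allowing for depth, the exact interval of the ratio of A15 to A13 and A16 together began at 1.53, above equal levels. That interval covers counting error only, and A15 was set apart with its reads already known. What set A15 apart was not tested.

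Scaled to CPM, ENSOARG00000002022 had 4.83 in D9, 4.23 in D10 and 4.83 in D11, a mean of 4.63 ± 0.345 (SD, n = 3). In maintenance testes A15 had 0.249 CPM (95% exact Poisson interval 0.0810 to 0.582), and the mean was 0.0831 ± 0.144 (SD, n = 3). The 0 reads in A13 allow a level of up to 0.193 CPM and those in A16 up to 0.168 CPM, taking 3 reads as the limit of a count of 0. Their 95% exact Poisson intervals, of the kind given for A15, ended higher, at 0.238 CPM in A13 and 0.206 CPM in A16. Such intervals and limits cover counting error only. The interval of A15 ended far below the lowest restricted interval, which began at 3.25 CPM in D10.

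**Figure D1:**
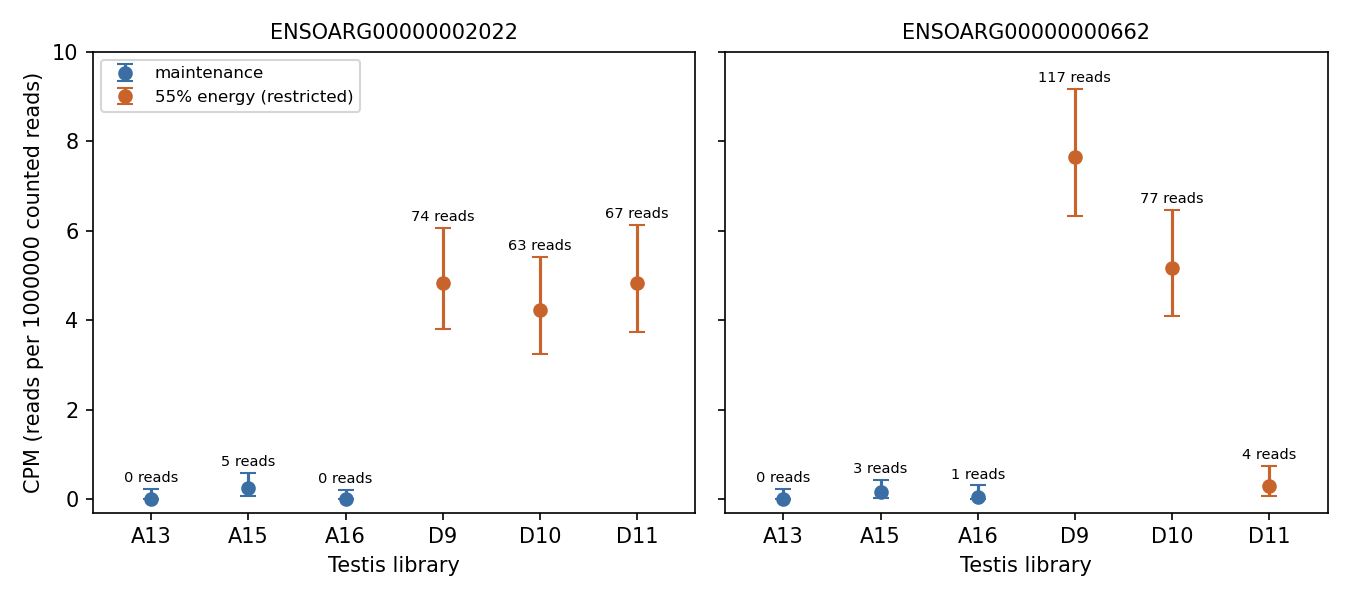
CPM (y axis, reads scaled by library total) of ENSOARG00000002022 (left) and ENSOARG00000000662 (right) in the 6 testis libraries (x axis), with maintenance in blue and restricted in orange. Points are single libraries with their read number, and bars are 95% exact Poisson intervals; the first gene lies between 4.23 and 4.83 CPM in all restricted libraries, while the second stands at 7.64 in D9, 5.17 in D10 and 0.288 CPM in D11.

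Summed over libraries, ENSOARG00000002022 had 204 reads in restricted and 5 in maintenance testes, a ratio of 49.5 after allowing for depth (95% exact interval 20.9 to 154, counting error only). Left without A15, the maintenance diet held 0 reads of this gene, and the exact interval of the ratio began at 41.5. Against a limit of 3 reads over the group, with the restricted reads taken as counted, the ratio was 51.5. The ratio was 35.1 without A13 and 32.9 without A16. It lay between 48.3 and 51.6 when any single restricted library was left out, so no restricted testis carried the difference alone.

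ENSOARG00000000662 was read far above the maintenance level in 2 of the 3 restricted testes, and D11 stood close to the maintenance testes. It had 117 reads in D9, 77 in D10 and 4 in D11. It had 0 reads in A13, 3 in A15 and 1 in A16. D9 and D10 were high, while D11 exceeded the highest maintenance library by 1 read.

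In CPM, ENSOARG00000000662 had 7.64 in D9 (95% exact Poisson interval 6.32 to 9.16), 5.17 in D10 (4.08 to 6.47) and 0.288 in D11 (0.0785 to 0.738). The maintenance values were 0 in A13, 0.1496 in A15 and 0.0559 in A16. The means were 4.37 ± 3.74 CPM in restricted and 0.0685 ± 0.0756 CPM in maintenance testes (SD, n = 3 each), so the SD of the restricted testes came close to their mean. D11 lay above A15 in CPM, but the ratio of the pair was 1.93 with an exact interval from 0.326 to 13.2, and against all maintenance reads it was 3.85 (0.718 to 20.7). Both intervals included equal levels, so a difference between D11 and the maintenance testes was not detectable at this depth.

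The summed reads of ENSOARG00000000662 were 198 in restricted and 4 in maintenance testes, a ratio of 60.0 (95% exact interval 23.1 to 223, counting error only). Of the restricted reads, 59.1% lay in D9, 38.9% in D10 and 2.02% in D11. The ratio of the diets therefore stands for D9 and D10: it was 85.9 without D11 and 37.6 without D9. It was also 150 without A15 (26.6 to 5957), where 1 maintenance read was left. Both genes thus had a like ratio of summed reads, although the first had it in every restricted testis and the second in only 2 of them.

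The reads of the restricted testes were set against those that an equal level would give. For ENSOARG00000002022 an equal share of the reads would be 70.9 in D9, 68.9 in D10 and 64.2 in D11, each close to the reads counted. Its ratio of D9 to D10 was 1.14 (95% exact interval 0.805 to 1.62) and that of D9 to D11 was 1.001 (0.709 to 1.41). Both intervals included equal levels. For ENSOARG00000000662 an equal share would be 68.8, 66.9 and 62.3 reads, against the 117, 77 and 4 counted. D9 exceeded D11 by a ratio of 26.5 (10.1 to 98.9) and D10 exceeded D11 by 17.9 (6.73 to 67.5). The ratio of D9 to D10 was 1.48 (1.099 to 1.996).

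**Figure D2:**
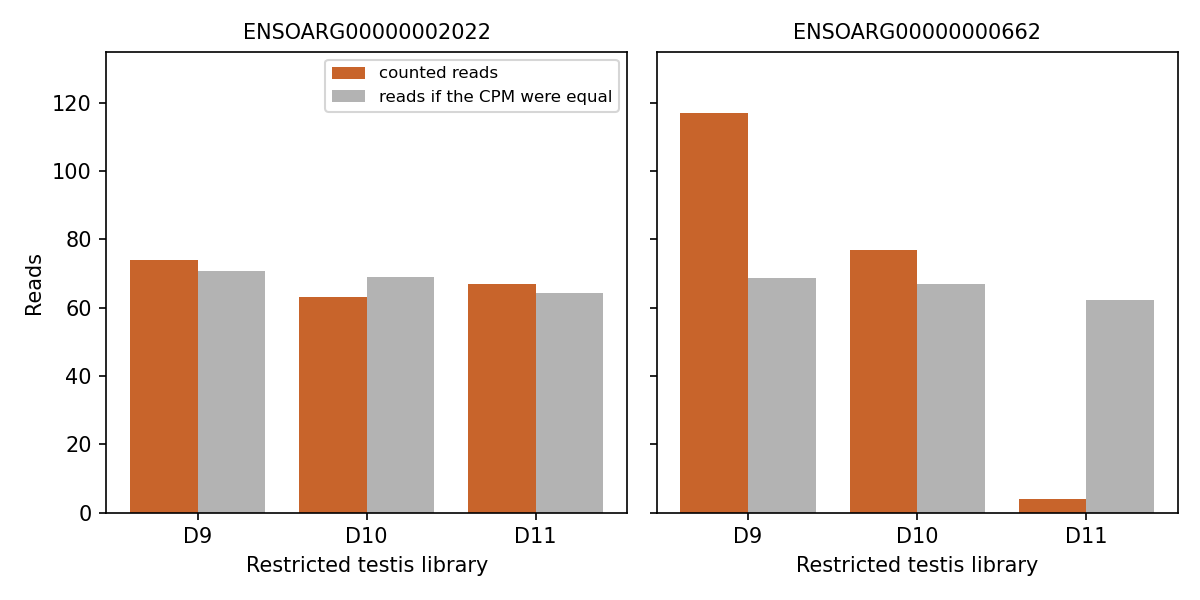
Reads (y axis) counted in the restricted libraries D9, D10 and D11 (orange) beside the reads expected if all 3 had the same CPM (grey), for ENSOARG00000002022 (left) and ENSOARG00000000662 (right). Counted and expected reads lie close together in the left panel, whereas D11 holds 4 reads against 62.3 in the right one.

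The coefficient of variation of CPM over the restricted testes (CV, the SD as a share of the mean) was 7.46% for ENSOARG00000002022 and 85.7% for ENSOARG00000000662. Around the first gene, 3217 Ensembl genes had a restricted mean within 2-fold of its own, with a median CV of 32.8%, and 101 of them, itself included, had a CV as low or lower. Around the second gene there were 3143 such genes with a median CV of 33.1%, and 50, itself included, had a CV as high or higher. The first gene was thus among the more even genes of its level and the second among the more uneven. Their spread was known when they were picked, so these ranks are description only. At 63 to 74 reads per library, all ratios between the restricted testes of the first gene had counting intervals that included equal levels. Its CV therefore cannot be told from counting error. The CV of the second gene was 27.2% over D9 and D10 alone, and that of the first was 0.0701% over D9 and D11 alone. With TMM scaling (trimmed mean of M values), which evens out the bulk of genes, the CV of the first was 10.3%.

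The split of ENSOARG00000000662 among restricted testes did not follow the leading principal component. D10 and D11 lay on the same side of it, at -50.2 and -44.1, but had 77 and 4 reads. D9, on the opposite side at 44.4, shared the high level with D10. ENSOARG00000002022 was even across the same 3 testes, and A13 and A16, on opposite sides of the component, both had 0 reads of it. A15, which lay furthest out on the component at 93.8, had 5 reads of ENSOARG00000002022 and 3 of ENSOARG00000000662, the most of any maintenance testis for both. A link of these few maintenance reads to the component was not tested.

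Per unit of gene length, ENSOARG00000002022 stood below the middle of the genes with a read in every restricted testis. ENSOARG00000000662 stood near the middle in D9 and D10 and low in D11. The lengths that relate the deposited FPKM (fragments scaled by gene length and library total) to the counts were 3135 bases for ENSOARG00000002022 and 1383 bases for ENSOARG00000000662, each a multiple of 3, as were 72.9% of the Ensembl lengths. ENSOARG00000002022 had 1.54, 1.35 and 1.54 FPKM in D9, D10 and D11, and ENSOARG00000000662 had 5.53, 3.74 and 0.208 FPKM. Per length, the second gene was thus the higher one in D9 and D10 and the lower one in D11. Among the genes with a read in the same library, the first stood at the 34.7, 32.1 and 34.7 percentile of FPKM in D9, D10 and D11. The second stood at the 57.4, 48.2 and 8.14 percentile. In A15, where both had reads, they stood at the 4.31 and 5.82 percentile.

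How far the diets stood apart for each gene was compared with how far testes of 1 diet stood apart. On the scale of log2(CPM + 0.5), the restricted mean of ENSOARG00000002022 exceeded the maintenance mean by 3.16, while its range (highest minus lowest library) was 0.58 among maintenance and 0.17 among restricted testes. The difference of ENSOARG00000000662 was 2.55, with a range of 0.38 among maintenance and 3.37 among restricted testes. The gap between diets thus exceeded the gap between testes of a diet for the first gene, and fell short of it for the second. The added 0.5 CPM shrinks all these values for genes so low.

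The same quantities over the 15089 Ensembl genes averaging at least 1 CPM give these values their setting. The median absolute difference between diets was 0.25, and the median range was 0.77 among maintenance and 0.66 among restricted testes. In 319 of these genes (2.11%), ENSOARG00000002022 among them, the restricted mean was higher by more than the range of either diet. The 2 genes had the 2 largest differences in favour of restricted testes, which is what they were picked for. In the opposite direction 1 gene, ENSOARG00000020661 (named after its values were seen), differed by at least as much as ENSOARG00000000662, with 79, 223 and 239 reads in A13, A15 and A16 and 5, 87 and 2 in D9, D10 and D11.

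Gaps of this size also occurred between testes fed alike. A within-diet range of at least 3.16, the diet difference of ENSOARG00000002022, occurred in 475 of the 15089 genes (3.15%), in 465 among maintenance and in 18 among restricted testes. With the difference recomputed each time, the number was 45 without A13 and 78 without A15. A range of single libraries is not the same quantity as a difference of means of 3, which is the less variable one. A restricted range as large as that of ENSOARG00000000662 occurred in 12 genes, itself included (0.0795%), and a maintenance range as large occurred in 364.

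**Figure D3:**
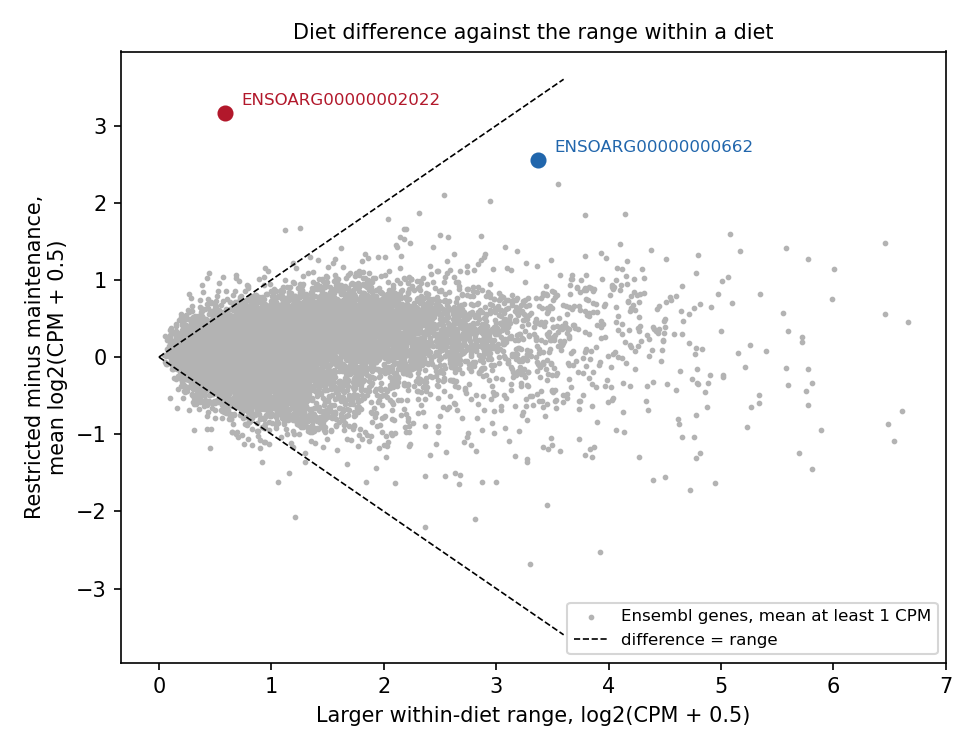
Restricted minus maintenance difference in mean log2(CPM + 0.5) (y axis) against the larger of the 2 within-diet ranges on the same scale (x axis), one point for each of 15089 Ensembl genes averaging at least 1 CPM; dashed lines mark a difference equal to the range. ENSOARG00000002022 (red, 3.16) lies above the upper line and ENSOARG00000000662 (blue, 2.55) below it, to the right, at a range of 3.37.

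Read in one testis and missing from another was also a pattern found within diets. Of the 19788 Ensembl genes with a count, 592 (2.99%) had at most 0.2 CPM in one testis and at least 1 CPM in another of the same diet, 468 within maintenance and 188 within restricted. Including unannotated genes the number was 1352 of 27955 (4.84%). It was 819 without A13 and 847 without A15, and between 818 and 3024 with a limit of 0.1 or 0.5 CPM.

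The pattern between diets was stricter, as it asked for every testis of both diets in 1 direction. The counts within diets asked only for 1 low and 1 high testis in either order, so the numbers are not comparable. At most 0.2 CPM in every maintenance testis with at least 1 CPM in every restricted testis occurred in 0 of the 19788 Ensembl genes (0%), as counted with no test. ENSOARG00000002022 missed this limit through the 5 reads of A15, and ENSOARG00000000662 missed it through the 4 reads of D11. It occurred in 3 unannotated genes, Novel03527, Novel06310 and Novel08062, and the reverse pattern occurred in 0 genes. With at most 0.5 CPM in maintenance testes there were 6 genes, of which ENSOARG00000002022 and ENSOARG00000001393 were the Ensembl genes and Novel05183 was the added unannotated one. Novel01637 and Novel06014 then showed the reverse. All of these genes were named after their values were seen, except the 2 members and those named below as alike. Leaving out 1 library gave between 3 (without A13) and 8 such genes (without A16, and likewise without D9) at 0.2 CPM.

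In both genes every restricted library lay above every maintenance library in CPM, which the choice of the genes nearly fixed. Of the 22323 genes kept by the filter, 1011 (4.53%) had this order, and 517 (2.32%) had it with TMM scaling. ENSOARG00000000662 itself did not pass that filter, which asks for about 10 reads in 3 libraries, because only D9 and D10 held so many.

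The edgeR quasi-likelihood test over 22323 genes, with Benjamini-Hochberg adjustment, called 0 genes between the diets at an adjusted p below 0.05 (0%). At an unadjusted p below 0.05 it held 540 genes, 104 higher (0.466%) and 436 lower in restricted testes. Without A13 there were 2459 such genes, 1302 higher and 1157 lower. When counts were scaled by library size only, 190 were higher and 270 lower, so the number was not stable. Lower genes outnumbered higher ones in every test and setting run except that without A13, though the lean was smaller with library size only. limma-voom called 0 genes, with 625 at an unadjusted p below 0.05. The edgeR exact test called 8 (0.0358%), of which 5 were higher (0.0224%). DESeq2 over the 27955 genes with a count called 12 (0.0429%), of which 7 were higher (0.0250%). The edgeR quasi-likelihood test without any filter called 0 of 27955, with 751 at an unadjusted p below 0.05. These counts describe the whole table. Since ENSOARG00000002022 and ENSOARG00000000662 were chosen on this contrast, their p-values are not given, nor whether they were among the 8 or the 12 genes called. A count of 0 called genes includes no member, but this does not extend to the exact test and DESeq2.

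The genes with the pattern most like each member were sought among the 22323 genes, as the root mean square difference in log2(CPM + 0.5) over the 6 libraries after each gene was centred on its own mean. For ENSOARG00000002022 the nearest unannotated gene was Novel03527, at 0.53, where the median of all genes was 1.60. Novel03527 had 0, 2 and 1 reads in A13, A15 and A16 and 144, 151 and 69 in D9, D10 and D11. Its level was less even among restricted testes than that of ENSOARG00000002022, with D11 lowest.

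The nearest Ensembl genes lay further off. ENSOARG00000001393, at 0.81, had 0, 0 and 6 reads in A13, A15 and A16 and 17, 42 and 23 in D9, D10 and D11. ENSOARG00000000857, at 0.92, had maintenance reads of 19, 29 and 15 and restricted reads of 173, 28 and 100, in the same order of libraries. Neither was as even among restricted testes as ENSOARG00000002022: the former was lowest in D9, and the latter was low in D10 and read in every maintenance testis.

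For ENSOARG00000000662 the nearest unannotated gene was Novel07150, at 0.53, where the median of all genes was 1.68. Novel07150 had 75, 49 and 57 reads in maintenance testes and 442, 358 and 73 in D9, D10 and D11. It was likewise low in D11, where its 5.26 CPM stood beside 4.83 CPM in A13, but it was read in every maintenance testis. ENSOARG00000005407, at 0.90, had 26, 4 and 5 reads in A13, A15 and A16 and 82, 50 and 4 in D9, D10 and D11. ENSOARG00000011970, at 1.02, had maintenance reads of 0, 24 and 0 and restricted reads of 42, 17 and 0. These 3 genes were lower in D11 than in D9 and D10, which a search for the nearest pattern largely fixed. The last 2 were also raised in 1 maintenance testis, A13 or A15. No gene in this search was examined for a shared function or control.

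The 2 members were not each other's nearest. The root mean square difference between them was 1.12, and 38 of 22322 other genes lay nearer to ENSOARG00000002022 than ENSOARG00000000662 did. D11 set them apart, with 67 reads of the one and 4 of the other.

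**Figure D4:**
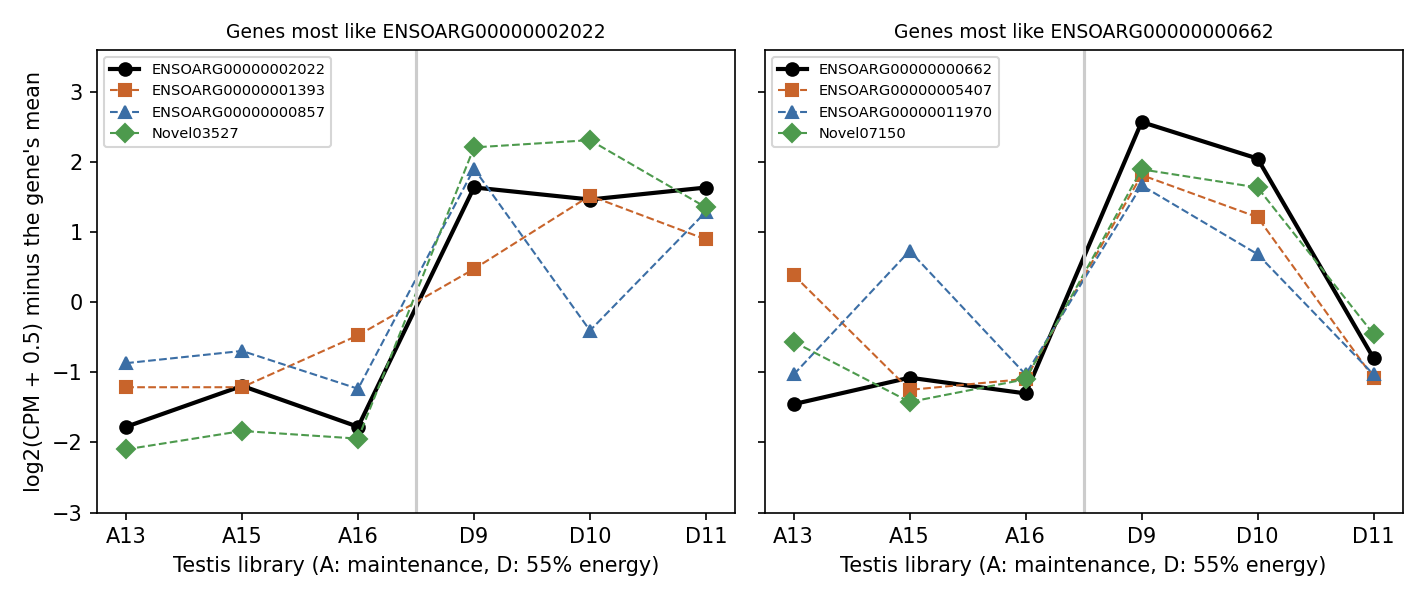
log2(CPM + 0.5) minus each gene's own mean (y axis) in the 6 libraries (x axis; A is maintenance, D is 55% energy) for ENSOARG00000002022 (left) and ENSOARG00000000662 (right), in black, with the 3 genes most like each. Lines only join the values of a gene. The genes on the left are higher in D9, D10 and D11 with an uneven course, and those on the right are higher in D9 and D10 than in D11. On the right, ENSOARG00000011970 is also raised in A15, at 1.20 CPM against 1.14 CPM in D10.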

How the data were processed

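The authors deposited raw read counts per gene and FPKM values for 6 testis libraries, per the file headers. Per the submitters' processing notes, TopHat2 was used with the sheep build Oar_v3.1. How reads were counted, whether by strand, on which annotation and with what filter is not given in the sources used here. The deposited FPKM equals the count divided by gene length and column total, with lengths whole to within 1.38e-09 bases, so it adds only lengths. Columns were matched to samples by title, and 0 columns were left unused.

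CPM were counts over column totals. Count intervals are exact Poisson and ratio intervals exact conditional (Clopper-Pearson), both at 95%, from scipy 1.17.1. The diets were compared with edgeR 4.0.16 in R 4.3.3 (quasi-likelihood, TMM, filterByExpr with minimum count 10 and minimum total 15), and with limma 3.58.1 (voom), DESeq2 1.42.0 and the edgeR exact test as alternatives. The edgeR script was tested on simulated data. Where nothing says that libraries are separate animals, p-values set the diet difference only against the spread between these samples, a spread that may be technical. Genes named as alike were the 2 nearest Ensembl genes and the nearest unannotated gene to each member. The members, limits and measures were chosen with earlier results of these data known.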

Additional observations from a re-analysis of the deposited data

How the results depend on the processing

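The log2 ratio of mean CPM (0.5 CPM added to each mean), restricted over maintenance, was 3.14 for ENSOARG00000002022 and 3.098 for ENSOARG00000000662, and it stayed positive in each of the 10 alternatives run for either. With 0.1 CPM added it was 4.69 and 4.73, and with 1 CPM added 2.38 and 2.33. Leaving out 1 library gave 3.04 to 3.36 for the first and 2.51 to 3.603 for the second, highest without D11. TMM gave 3.06 and 3.08. The CV over restricted libraries ranged from 0.0701 to 9.37% and from 27.2 to 131% with 1 library left out. The count of genes called by the edgeR quasi-likelihood test, 0, was 0 under the other scalings and without the filter, 0 with limma-voom, 8 in the edgeR exact test and 12 by DESeq2, and 0 to 1 with 1 library left out (the 1 without A13). Genes with every restricted above every maintenance library numbered 1011, and 517 with TMM scaling. The 3 genes near absent in all maintenance and present in all restricted testes became 6 at a limit of 0.5 CPM, and 3 to 8 with 1 library left out. Those near absent in 1 testis and present in another of the same diet, 1352, numbered 818 at 0.1 CPM, 3024 at 0.5 CPM and 819 to 1172 with 1 library left out. The 475 genes whose within-diet range reached the diet difference of ENSOARG00000002022 became 124 with 0.1 CPM added, 867 with 1 CPM added and 45 to 510 with 1 library left out. The causes of these shifts were not tested. Leaving out libraries from the last 3 counts, and the settings of the last, were chosen after seeing the data. No paired analysis was possible because the labels give no replicate numbers shared between the diets. Few reads limit the precision of both genes in maintenance testes, where at most 5 were counted in a library. These libraries were nonetheless deeper than the restricted ones.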
